A study of Mus musculus with 24 samples.

Results

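Cytochrome P450 enzymes (P450s) are heme proteins that insert oxygen into small molecules, and their genes carry the symbol Cyp. The genes described here were those with a symbol of the form Cyp, number, letter, number that matched a probe's accession on the array, with Cyp4a10, Cyp4a14, Cyp51, Cyp7a1, Cyp7b1, Cyp8b1 and Cyp27a1 set aside by the same rule. They came to 91 of the 21368 genes named on the array, 87 protein coding and 4 transcribed pseudogenes, and each was read from 1 probe, the one with the highest mean over all arrays. Transcripts were measured on 24 one-colour Agilent arrays of liver, brain, heart and skeletal muscle from 6 male mice, 3 wild type (WT) and 3 Rap1 KI/KI. Rap1 KI/KI mice are homozygous for the I312R point mutation in Terf2ip, the gene of the telomere protein RAP1, introduced by CRISPR/Cas9 editing, and the line was backcrossed 4 times to C57BL/6N mice (C57BL6 in the labels). All tissues came from the same 6 animals. Age differed within each genotype, at 5 months for mouse 1 (WT1 and KI1) and 2 months for WT2, WT3, KI2 and KI3. The mice are separate animals, so the spread given is between animals. Because the knock-in changes 1 residue, the array's signal for Terf2ip does not check the genotype labels.

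P450 enzymes of the endoplasmic reticulum take electrons from the reductase Por, and those of mitochondria take them from ferredoxin. The Cyp1, Cyp2 and Cyp3 families are known mainly for oxidising drugs, toxins and steroids in hepatocytes, and the Cyp4 family for hydroxylating fatty acids and eicosanoids. Other members have narrower substrates, such as Cyp46a1, which converts cholesterol to 24-hydroxycholesterol in neurons, Cyp11a1, which starts steroid synthesis from cholesterol, and Cyp26b1, which degrades retinoic acid.

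Levels are given as log2 signal relative to the 75th percentile of the same array, so that 0 is that percentile and a difference of 1 is 2-fold. A probe was tested in a tissue when 3 or more of that tissue's 6 arrays had it well above background. Levels of different genes come from different probes and are not set against each other. These are pieces of whole tissue, so fewer cells of a type and less RNA per cell cannot be told apart. The 7 defining markers of each labelled tissue were all above background in that tissue, and between 56.5% and 72.7% of probes were well above background on each array. Liver arrays all lay on slide 1 and muscle arrays all on slide 3, brain was divided between slides 1 and 2 and heart between slides 2 and 3. RNA of heart and muscle was purified with a kit for fibrous tissue and that of liver and brain with another, so kit and tissue cannot be told apart.

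Liver held the broadest set of P450 transcripts. Of the 91 genes, 79 were detected well enough to be tested in liver (86.8%, against 75.2% of all named genes), 60 in heart (65.9%, against 75.4%), 51 in brain (56%, against 79.8%) and 47 in muscle (51.6%, against 71.5%). Tested in at least 1 tissue were 82 genes, and 40 were tested in all 4 tissues. The 9 genes tested nowhere included the adrenal enzymes Cyp11b1 and Cyp11b2 and the vitamin D catabolic enzyme Cyp24a1, and 5 of the 9 were above background on no array.

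The question of where each P450 gene was expressed was answered by comparing the 4 tissues over all 24 arrays with limma. Of the 82 genes tested, 63 were higher in liver than in each of the other tissues at an adjusted p of 0.05, against 23.3% of all probes on the array. Brain was highest for 4 genes (17.5% of all probes), heart for 3 (6.79%), and muscle for 1 (10.2%), and 11 genes had no single highest tissue. Of the 63 genes, 18 were tested through their liver arrays only and so had to be higher there, and 29 were tested in all 4 tissues. The median P450 gene was 6.52 higher in liver than in brain on the log2 scale, 6.18 higher than in heart and 6.85 higher than in muscle, where the median of all probes was 0.35, 0.00 and −0.06. With slide as a fixed block, or with a different background correction, the number highest in liver was 56.

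Pair by pair, liver exceeded brain for 70 of the 82 genes (45.6% of all probes), heart for 67 (34.4%) and muscle for 71 (34.9%), while 6, 6 and 4 genes were lower in liver (33.4%, 32.3% and 36.3% of all probes). Between the other tissues the median differences were smaller, at −0.85 for brain from heart and −0.77 for brain from muscle. Brain was above heart for 13 genes (27.7%) and below it for 42 (39.9%), and brain was above muscle for 21 (28.7%) and below it for 36 (41.4%). Heart exceeded muscle for 30 genes (21%) and was lower for 6 (22.4%), with a median difference of 0.34 that changed to −0.20 when the background was corrected with normexp.

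**Figure D1:**
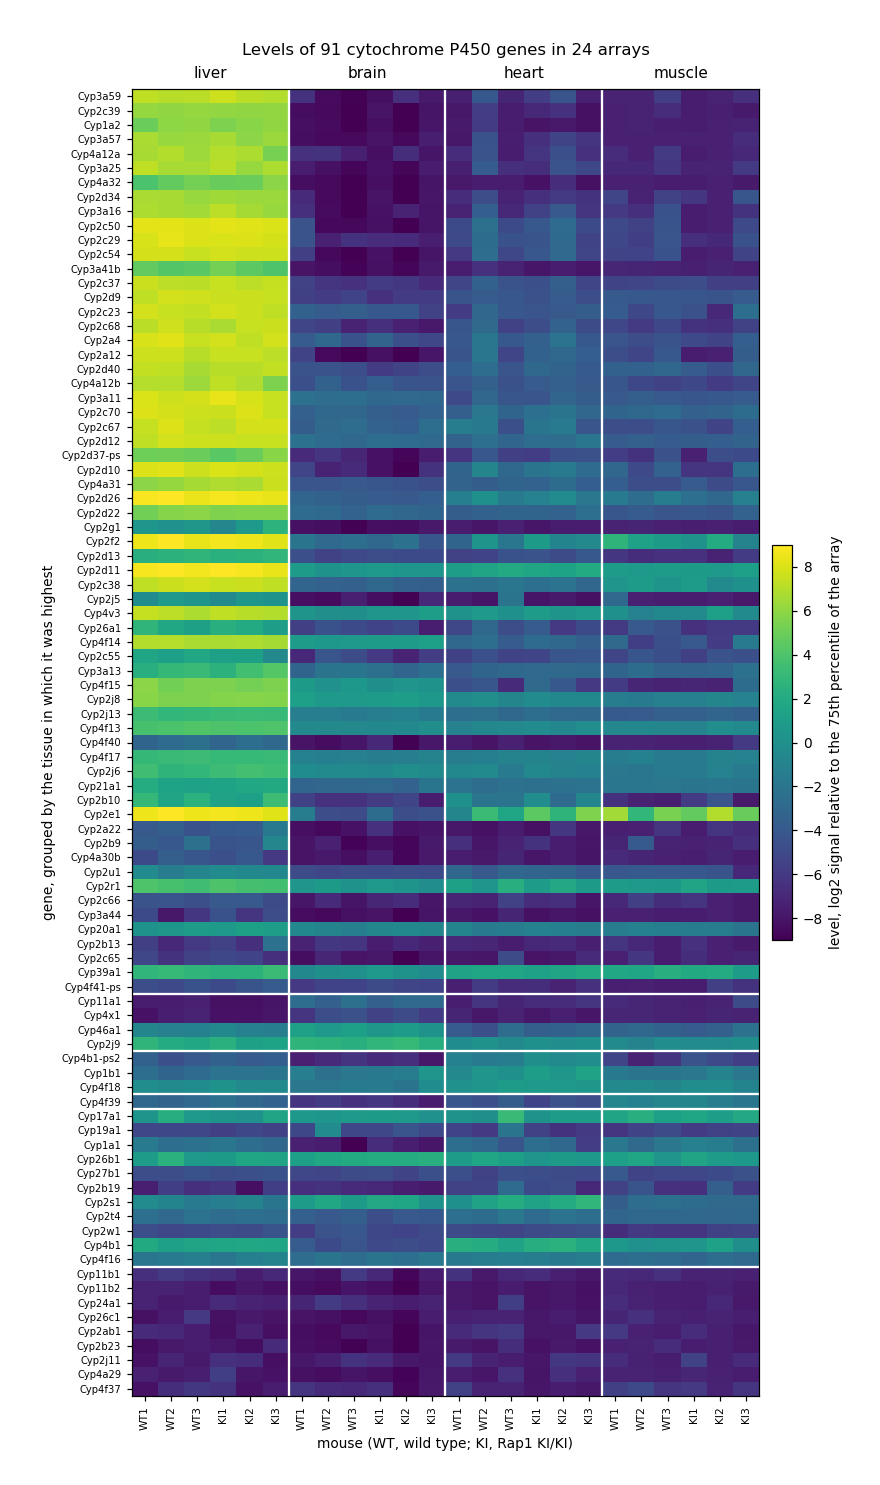
Levels of the 91 P450 genes (rows, grouped by the tissue in which each was highest) on 24 arrays (columns, by tissue and mouse), as log2 signal relative to each array's 75th percentile. The 63 genes highest in liver form a block that is bright in the 6 liver columns and dim in the 18 others.

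Whole subfamilies were highest in liver. All 13 Cyp2c genes, all 10 Cyp2d genes, all 8 Cyp3a genes and all 3 Cyp2a genes, the main drug- and steroid-oxidising groups, were higher there than in each other tissue. So were 5 of 6 Cyp4a genes, 6 of 10 Cyp4f genes, 4 of 6 Cyp2j genes, which act on arachidonic acid, and 3 of 5 Cyp2b genes. Among genes that were also above background on at least 3 heart arrays, liver exceeded heart by 58.9- to 4626-fold for 10 Cyp2c genes, by 153- to 3409-fold for 9 Cyp2d genes and by 76.3- to 5478-fold for 4 Cyp3a genes. The same liver excess over heart was 17.3- to 68.5-fold for 3 Cyp2j genes. Near-identical paralogs within Cyp2c, Cyp2d, Cyp3a, Cyp4a and Cyp2b may share signal on these probes, and probe sequences were not used here, so the split between such genes is uncertain. Most further probes of the liver genes also had their highest mean in liver. A second Cyp2j13 probe did not (−5.20 in liver and −4.05 in muscle), nor did a second probe of the liver gene Cyp21a1 (−6.46 and −3.44).

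The size of the liver excess could often be given only as a lower bound, because the other tissues were at background. For such a pair the dim tissue was set at the lowest signal that counted as well above background. With those bounds, the smallest of the 3 excesses was over 10-fold for 50 of the 63 genes, over 100-fold for 34 and over 1000-fold for 26, with a median of 163-fold. For Cyp3a44, Cyp2c65 and Cyp2b13 the smallest bound was under 1, which gives no fold. Cyp1a2, which oxidises caffeine and arylamines, is an example. Its liver level ran from 4.99 through a median of 5.84 to 6.02, and it was above background on none of the 18 arrays of other tissues. Liver exceeded brain at least 3867-fold for Cyp1a2, heart at least 2595-fold and muscle at least 1902-fold. Cyp4a32 was likewise above background in liver only, by at least 2263-, 1518- and 1113-fold over brain, heart and muscle. These 2 were named with Cyp3a59, Cyp2c39, Cyp3a57, Cyp4a12a, Cyp3a25, Cyp2d34, Cyp3a16 and Cyp2c50 by their measured log2 differences, which give no order at background. The smallest excess of Cyp2c50 was measured. So were those of Cyp3a16 (4855-fold over heart, with 3 heart arrays above background) and Cyp2d34 (5365-fold over muscle, with 1 muscle array above background). Those of the other genes were bounds from at least 1113-fold (Cyp4a32) to at least 5396-fold (Cyp3a59), and the 10 genes are not ranked.

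Other genes could be measured on both sides. Cyp2c50 lay between 8.02 and 8.30 in liver (median 8.18) and between −4.98 and −2.38 in heart (median −4.52), a 4626-fold difference (log2 12.18, SE 0.66, adjusted p = 2.9e-12). Cyp2f2, known from Clara cells of the lung and from periportal hepatocytes, ran from 8.11 to 8.99 in liver with a median of 8.52. It was 183-fold lower in muscle, 697-fold lower in heart and 2593-fold lower in brain. Cyp2e1, the ethanol-oxidising P450 of pericentral hepatocytes, was above background on all 24 arrays. Its level was 8.15 to 9.22 in liver (median 8.53), 2.94 to 6.94 in muscle (median 5.10), −0.80 to 5.55 in heart (median 2.97) and −4.79 to −1.38 in brain (median −4.59). Liver exceeded muscle by 10.6-fold for Cyp2e1 (log2 3.41, adjusted p = 0.00061), and muscle exceeded heart by 2.40 on the log2 scale (adjusted p = 0.016).

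Other liver excesses were small. The oxysterol hydroxylase Cyp39a1 was 2.11-fold higher in liver than in muscle, 2.40-fold higher than in heart and 7.21-fold higher than in brain. Cyp20a1, whose substrate is not established, was 3.00-, 4.10- and 4.55-fold higher in liver than in brain, heart and muscle. Cyp2r1, the vitamin D 25-hydroxylase, was 5.69-fold higher in liver than in heart, and Cyp2u1, a fatty acid hydroxylase, 6.43-fold higher.

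The bases before the annotated gene are shown for 4 genes highest in liver and for the brain gene Cyp46a1 and the heart gene Cyp1b1, as examples of the promoters in which short motifs were counted. Sequences are from RefSeq on build GRCm38.p6, 5′ to 3′ on the gene's strand, and cover the 150 bases before the annotated gene. The first start listed for Cyp46a1 lies 48 bases inside the gene, and at it for the other 5. Capitals mark the motifs searched, the TATA box core TATAAA, the motif CAAAGTCCA of HNF4-type nuclear receptors, and the GC box GGGCGG, or their reverse complements.
Cyp2e1 (chr7:140763669-140763818, + strand): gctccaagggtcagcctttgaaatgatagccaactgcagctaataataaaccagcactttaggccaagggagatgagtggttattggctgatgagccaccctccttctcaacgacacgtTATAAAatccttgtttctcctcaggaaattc
Cyp1a2 (chr9:57683656-57683805, - strand): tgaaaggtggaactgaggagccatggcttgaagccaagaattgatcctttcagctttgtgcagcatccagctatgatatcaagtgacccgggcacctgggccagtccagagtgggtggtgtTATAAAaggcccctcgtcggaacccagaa
Cyp3a11 (chr5:145879855-145880004, - strand): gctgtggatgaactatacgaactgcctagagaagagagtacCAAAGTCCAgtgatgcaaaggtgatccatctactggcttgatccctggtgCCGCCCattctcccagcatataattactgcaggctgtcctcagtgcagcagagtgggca
Cyp2c70 (chr19:40187287-40187436, - strand): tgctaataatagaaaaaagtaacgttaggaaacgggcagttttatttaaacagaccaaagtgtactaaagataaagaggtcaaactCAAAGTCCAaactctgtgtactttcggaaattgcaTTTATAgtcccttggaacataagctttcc
Cyp46a1 (chr12:108334118-108334267, + strand): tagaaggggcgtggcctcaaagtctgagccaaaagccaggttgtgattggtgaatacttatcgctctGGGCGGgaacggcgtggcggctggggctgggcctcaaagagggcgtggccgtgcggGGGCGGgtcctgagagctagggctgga
Cyp1b1 (chr17:79715062-79715211, - strand): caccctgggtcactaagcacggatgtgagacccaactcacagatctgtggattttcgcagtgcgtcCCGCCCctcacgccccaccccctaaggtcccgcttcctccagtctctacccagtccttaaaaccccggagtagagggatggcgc

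Promoter entries were matched for 69 of the 91 genes, 47 of them highest in liver. Within 250 bases before and 50 bases after the first start listed for each gene, on either strand, TATAAA occurred in 24 of the 47 liver promoters (51.1%) and in 14.2% of 27025 mouse promoters of the same length. Between 40 and 20 bases before the start on the gene's own strand, where a TATA box acts, it stood in 8 of 47 (17%) against 2.22% of all promoters, and in Cyp2e1 and Cyp1a2 its first base was 31 and 29 bases before the start. CAAAGTCCA was present in 7 of 47 (14.9%, against 0.477% of all promoters), in Cyp3a11, Cyp3a16, Cyp3a41b, Cyp2c65, Cyp2c67, Cyp2c68 and Cyp2c70. GGGCGG was in 7 of 47 (14.9%) and in 35.9% of all promoters. Of the 6 matched promoters of genes highest in brain, heart or muscle, none held TATAAA and 4 held GGGCGG. CG pairs numbered 2 in the median liver promoter, 9 in the median of those 6, and 7 in the median of all promoters. Over all 22 matched genes not called highest in liver, these 6 among them, 2 held TATAAA (9.09%) and 8 held GGGCGG (36.4%). The median of the 22 was 4.5 CG pairs. Some of these promoters belong to duplicated genes and share sequence, and a match of letters is not a measured binding site.

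Brain was the highest tissue for 4 genes. Cyp46a1, the neuronal cholesterol 24-hydroxylase whose GC-rich promoter is shown above, read 1.28, 0.74 and 1.14 in the brains of WT1, WT2 and WT3 and 0.53, 0.85 and 0.15 in those of KI1, KI2 and KI3. In liver it ran from −1.33 to −0.59, in heart from −4.60 to −2.54 and in muscle from −3.79 to −2.27, so that no array of another tissue reached the lowest brain. Brain exceeded liver by 3.50-fold for Cyp46a1 (adjusted p = 1.4e-05), heart by 19.5-fold and muscle by 15.9-fold. Cyp11a1, the side-chain cleavage enzyme, was above background in all 6 brains at −3.46 to −2.38 (median −2.87) and on 1 of the other 18 arrays, the muscle of KI3 at −4.83. On that muscle array the brain markers Gfap and Gad1 read 1.94 and 0.77, where the other 5 muscles had −7.54 to −2.60 and −7.31 to −4.93, and the log2 sum of 7 brain markers was 7.10, against 6.34 to 6.94. Of the 4 brain markers tested for genotype in muscle, 3 had higher means in Rap1 KI/KI. The exception was Camk2a, at a mean of 2.90 in Rap1 KI/KI and 3.39 in WT muscles, without overlap. The part of brain RNA in the Cyp11a1 value was not tested. The brain excess of Cyp11a1 was at least 7.66-fold over liver and at least 6.60-fold over heart.

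The other brain genes were closer calls. Cyp4x1, an orphan P450 first described in brain, was above background on 4 brain arrays and on none elsewhere, at −6.32 to −4.56 in brain (median −5.20). The bound on its brain excess was 1.49-fold over liver and 1.29-fold over heart, with none for muscle, and normexp background correction turned its smallest difference to −0.36 (adjusted p = 0.039). Cyp2j9 read 2.26 to 3.05 in brain and 1.21 to 2.81 in liver, ranges that overlapped, with a difference of 1.60-fold (adjusted p = 0.0092). On the WT arrays alone that difference was 0.32 on the log2 scale (adjusted p = 0.39), and without KI2 it was 0.48 (adjusted p = 0.098).

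Heart and muscle held the remaining exceptions. Cyp4b1-ps2, a transcribed pseudogene (chr4:115582038-115583127) related to the fatty acid and furan hydroxylase gene Cyp4b1, ran from −1.56 to −0.06 in heart with a median of −0.73. It was 8.28-fold higher in heart than in liver, 29.0-fold higher than in muscle and 72.2-fold higher than in brain (adjusted p = 7.2e-08, 3.1e-10 and 3.1e-12), though only 2 of 6 muscle and 2 of 6 brain arrays were above background. Cyp1b1, which oxidises estrogens and polycyclic aromatic hydrocarbons in many extrahepatic tissues, had a median of 0.44 in heart and of −1.58, −1.78 and −2.34 in brain, muscle and liver. Heart exceeded these by 3.62-, 4.62- and 7.58-fold for Cyp1b1 (adjusted p = 2.1e-05, 6.6e-06 and 5.6e-08). Cyp4f18, a leukotriene B4 hydroxylase of neutrophils, was 1.74-fold higher in heart than in liver (adjusted p = 0.0065), a call lost with slide as a fixed block (log2 difference 0.40, adjusted p = 0.51). Cyp4f39, a hydroxylase of very long-chain fatty acids known from skin, ran from −1.91 to −0.67 in muscle and was 3.60-fold higher there than in liver, 10.6-fold higher than in heart and 42.3-fold higher than in brain, where 2 of 6 arrays were above background.

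**Figure D2:**
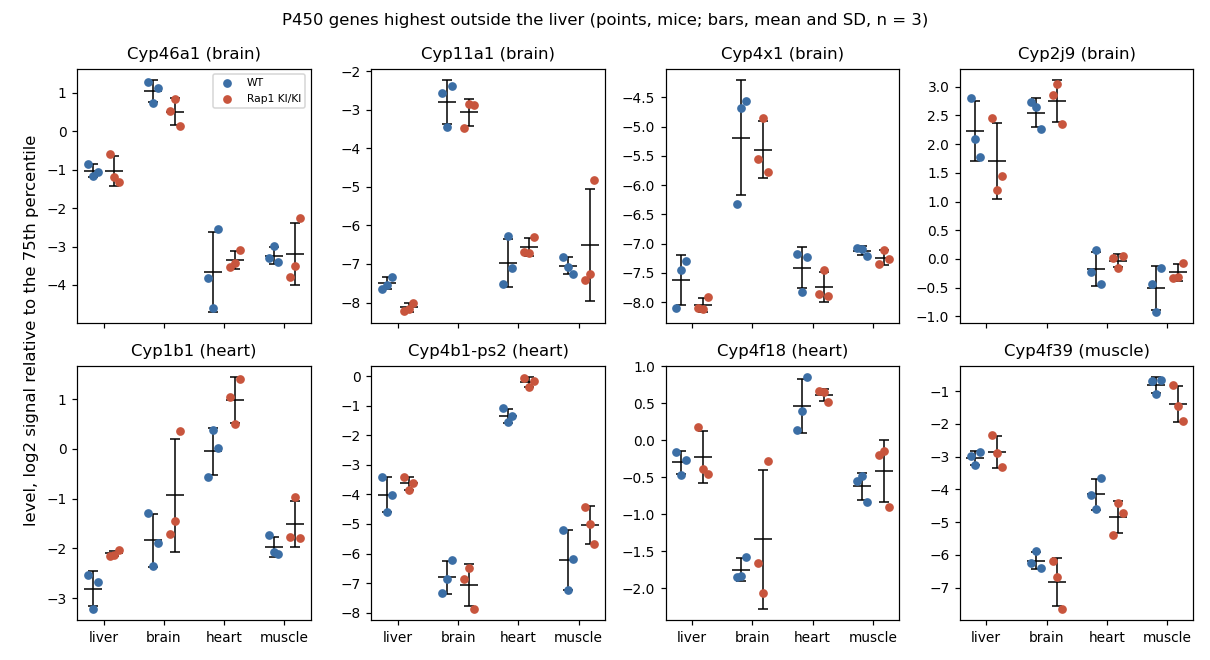
Levels (log2 relative to each array's 75th percentile) of the 8 P450 genes highest outside liver, by tissue, with 1 point per mouse (blue, WT; red, Rap1 KI/KI) and bars for the mean and SD over 3 mice. Cyp46a1, Cyp11a1 and Cyp4b1-ps2 stand clear of every other tissue, and Cyp2j9 overlaps between brain and liver.

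The 11 genes without a single highest tissue were Cyp17a1, Cyp19a1, Cyp1a1, Cyp26b1, Cyp27b1, Cyp2b19, Cyp2s1, Cyp2t4, Cyp2w1, Cyp4b1 and Cyp4f16. Cyp1a1, the target gene of the aryl hydrocarbon receptor, was above background on no brain array and at medians of −2.40 in liver, −2.90 in heart and −1.83 in muscle. Liver and muscle did not differ beyond their spread for Cyp1a1 (log2 difference −0.42, adjusted p = 0.43). Cyp2s1, known from epithelia, was near equal in heart and brain (difference of brain from heart −0.42, adjusted p = 0.34) and higher in both than in liver by 2.80 and 2.38. Cyp4b1 was at medians of 2.20 in heart and 1.66 in liver (adjusted p = 0.10 for their difference), above muscle at 0.39 and brain at −4.83. Cyp26b1 had medians of 2.07 in brain, 1.21 in liver, 1.01 in muscle and 0.88 in heart.

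Traces of the 63 liver genes in other tissues varied between arrays. Their median level was −3.18 in the heart of WT2 and −3.31 in that of KI2, with 50 and 46 of the 63 above background, and −4.63 to −4.07 in the other 4 hearts, with 36 to 42 above background. The log2 summed level of 7 liver markers was 5.80 and 5.05 in those 2 hearts and 3.81 to 4.78 in the other 4, and its part in the P450 values was not tested. In brain the median of the 63 genes lay between −5.77 and −4.83, and in muscle between −5.80 and −4.47.

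The main question of the design was whether P450 transcripts differed between WT and Rap1 KI/KI mice, and it was tested in each tissue separately with limma. No P450 gene differed at an adjusted p of 0.05 in any tissue, and neither did any other probe (0% of all probes). The lowest adjusted p over the P450 genes was 0.9999 in liver, 1 in brain, 0.65 in heart and 0.94 in muscle. With 3 mice in each genotype, the smallest two-sided p of an exact permutation test is 0.10. The values of genes with an unadjusted p under 0.05 are therefore given as measured, and none of them passed the test.

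Counts at that looser level were few. In liver, 2 of 79 genes had an unadjusted p under 0.05 (2.13% of all probes), in brain 2 of 51 (2.62%), in heart 4 of 60 (7.51%) and in muscle 1 of 47 (2.47%). Both liver genes had higher values in Rap1 KI/KI and none lower (1.25% and 0.882% of all probes), whereas both brain genes had lower values and none higher (1.52% and 1.11%), as did the muscle gene (1.03% lower and 1.44% higher). Leaving out 1 mouse at a time moved the number with an unadjusted p under 0.05 to 0 to 4 in liver, 0 to 4 in brain, 1 to 9 in heart and 0 to 7 in muscle. Over the same settings the share of all probes was 1.13% to 10.4% in liver, 0.988% to 7% in brain, 2.27% to 10.5% in heart and 1.52% to 9.29% in muscle. The 9 heart genes without WT2 (15%) stood beside 10.5% of all probes, and the 7 muscle genes without KI3 (14.9%) beside 2.43%. WT and Rap1 KI/KI mice did not overlap for 2 of 79 genes in liver (2.53%, against 5.85% of all probes), 7 of 51 in brain (13.7%, against 7.75%), 5 of 60 in heart (8.33%, against 14.7%) and 2 of 47 in muscle (4.26%, against 6.45%). Rap1 KI/KI was the higher genotype without overlap for 2 genes in liver, 4 in brain, 4 in heart and 2 in muscle (2.77%, 4%, 6.03% and 2.36% of all probes). It was the lower one for 0, 3, 1 and 0 genes (3.07%, 3.75%, 8.68% and 4.09%). The median difference of Rap1 KI/KI from WT was −0.02 over the liver genes, −0.06 in brain, 0.15 in heart and −0.07 in muscle, where all probes gave −0.01, −0.05, −0.02 and −0.07. The medians of liver and heart changed sign with the scaling, to 0.07 in liver with quantile normalization and to −0.03 in heart with normexp, while that of brain was 0.00 with quantile normalization and that of muscle stayed negative under each scaling run.

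**Figure D3:**
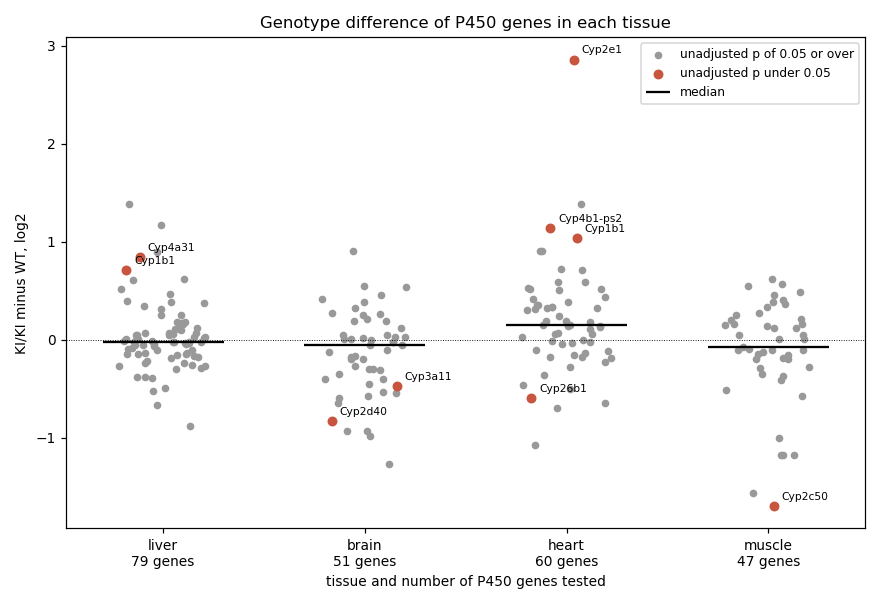
Difference of Rap1 KI/KI from WT (log2) for each P450 gene tested, by tissue, with red points for an unadjusted p under 0.05 and a bar at the median. The medians lie between −0.07 and 0.15, the red points number 2, 2, 4 and 1, and no gene reached an adjusted p of 0.05.

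In liver the pair of genes with the lowest p were Cyp1b1 and Cyp4a31. Liver Cyp1b1 read −2.53, −3.21 and −2.68 in WT1, WT2 and WT3 and −2.14, −2.13 and −2.03 in KI1, KI2 and KI3. The genotypes did not overlap, with a difference of 0.71 (SE 0.23, unadjusted p = 0.019). Cyp4a31, a fatty acid omega-hydroxylase, read 5.84, 6.18 and 6.56 in WT and 6.87, 6.70 and 7.55 in Rap1 KI/KI livers, again without overlap. The difference for Cyp4a31 was 0.85 (SE 0.30, unadjusted p = 0.026), and its other probes gave 0.60 and 0.63. The next liver genes by p were Cyp2c55, Cyp20a1, Cyp2j6 and Cyp2a22, with differences of −0.88, 0.47, 0.40 and 0.89 and genotypes that overlapped. Single mice carried part of these, since the difference was −0.31 for Cyp2c55 and 0.19 for Cyp2a22 without KI3, 0.30 for Cyp20a1 without WT1, and 0.25 for Cyp2j6 without WT2 and 0.61 without WT1. By subfamily, the liver differences were centred near 0, with medians of −0.03 over 13 Cyp2c genes, −0.04 over 10 Cyp2d genes, 0.09 over 8 Cyp3a genes and 0.02 over 17 Cyp4 genes tested. The 5 genes of the pericentral zone tested here (Cyp2e1, Cyp1a2, Cyp2c29, Cyp2c37 and Cyp2c50) had a median difference of −0.03.

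Brain gave 2 genes, both with lower values in Rap1 KI/KI. Cyp3a11, the principal mouse CYP3A, read −2.26, −2.58 and −2.52 in WT brains and −2.96, −2.88 and −2.95 in Rap1 KI/KI brains, without overlap (difference −0.48, SE 0.17, unadjusted p = 0.030). Cyp2d40 read −4.39, −4.37 and −4.67 in WT and −5.89, −5.31 and −4.73 in Rap1 KI/KI (difference −0.83, SE 0.32, unadjusted p = 0.038). Cyp2c23, a renal and hepatic epoxygenase, and Cyp26b1 followed, with differences of −0.94 and 0.55 and no overlap between the genotypes in either. Without KI3 the difference of Cyp2c23 was −0.45, without KI1 that of Cyp2d40 was −0.54, and without WT1 that of Cyp26b1 was 0.31. Of 7 liver markers, 6 also had lower means in Rap1 KI/KI brain, by a median of −0.51. The exception was Ttr, which carried their log2 sum of 4.82 to 6.18 in WT and 5.95 to 6.87 in Rap1 KI/KI brains. In the brain of WT1, Alb read 0.57 and Serpina1c 1.21, where the other 5 brains had −6.04 to −3.86 and −4.54 to −2.29. Without WT1 the differences were −0.38 for Cyp3a11, −0.79 for Cyp2d40 and −0.85 for Cyp2c23, and the part of liver RNA was not tested. In brain the slide follows age, and within slide 1, which held the 5-month-old pair, the differences of Cyp3a11 and Cyp2d40 were −0.71 and −1.51, against −0.36 and −0.50 among the 2-month-old mice on slide 2.

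Heart had the most genes at the looser level, 3 with higher and 1 with lower values in Rap1 KI/KI (5.1% and 2.42% of all probes). Cyp4b1-ps2 read −1.09, −1.56 and −1.35 in WT hearts and −0.06, −0.38 and −0.15 in Rap1 KI/KI hearts. That difference of 1.14 (SE 0.22, unadjusted p = 0.0014) was the smallest p of any P450 gene in any tissue, and it was 1.11 within slide 2 and 1.20 within slide 3. Heart Cyp1b1 read −0.56, 0.38 and 0.02 in WT and 1.06, 0.50 and 1.41 in Rap1 KI/KI (difference 1.04, SE 0.34, unadjusted p = 0.019). Neither gene overlapped between the genotypes.

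Heart Cyp2e1 spread far more widely between mice. It read −0.80, 3.26 and 1.65 in WT1, WT2 and WT3 and 4.44, 2.69 and 5.55 in KI1, KI2 and KI3, so that the genotypes overlapped. The difference was 2.86 (SE 1.12, unadjusted p = 0.038), and a second Cyp2e1 probe gave 2.95. Without WT1 it was 1.77, and it ran up to 3.80 with each other mouse left out in turn. The heart of WT1 stood apart in the atrial gene Myl7, at −2.41 against 5.03 to 8.33 in the other 5 hearts, and the part of this in the Cyp2e1 value was not tested. Cyp26b1, the retinoic acid hydroxylase, read 0.93, 1.56 and 1.15 in WT hearts and 0.43, 0.83 and 0.59 in Rap1 KI/KI hearts, without overlap (difference −0.59, SE 0.25, unadjusted p = 0.047).

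Adipocyte markers also differed between these hearts. The log2 summed level of 7 such markers (Adipoq, Cfd, Plin1, Cidec, Retn, Lep and Fabp4) was 7.84 to 7.94 in WT hearts and 8.58, 8.14 and 9.39 in KI1, KI2 and KI3, and 6 or 7 of the 7 were above background in each heart. Fabp4, at 7.63 to 7.90 in WT hearts, carried that sum. Adipoq read −4.23, 0.72 and −0.15 in WT1, WT2 and WT3 and 4.05, 0.42 and 4.86 in KI1, KI2 and KI3. Cfd read −0.12, 4.68 and 4.53 in WT and 6.99, 4.97 and 8.14 in Rap1 KI/KI hearts, so that WT1 was lowest and KI1 and KI3 highest for both. Cyp2e1 and Cyp1b1 were likewise lowest in WT1 and highest in KI1 and KI3. For Cyp4b1-ps2, however, WT1 was the highest of the WT hearts, and Cyp26b1 was lowest in KI1 and KI3 but highest in WT2. Of the 6 markers tested, 5 had an unadjusted p under 0.05, with differences such as 4.33 for Adipoq and 3.82 for Plin1, and none passed the adjustment. An alternative chosen after seeing the data left out KI1 and KI3, the hearts in which these markers were highest. It set KI2 alone against the WT hearts and so gives no test of genotype. Its differences were 0.96 for Cyp4b1-ps2, 0.55 for Cyp1b1, 1.32 for Cyp2e1 and −0.38 for Cyp26b1. In muscle, Cyp2e1 was high in WT1 and KI2 (6.47 and 6.94) and lowest in WT2 (2.94), and the adipocyte sum was likewise 10.05 and 10.52 in the first pair and 7.60 in WT2. The part of adipocyte RNA in these differences was not tested.

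**Figure D4:**
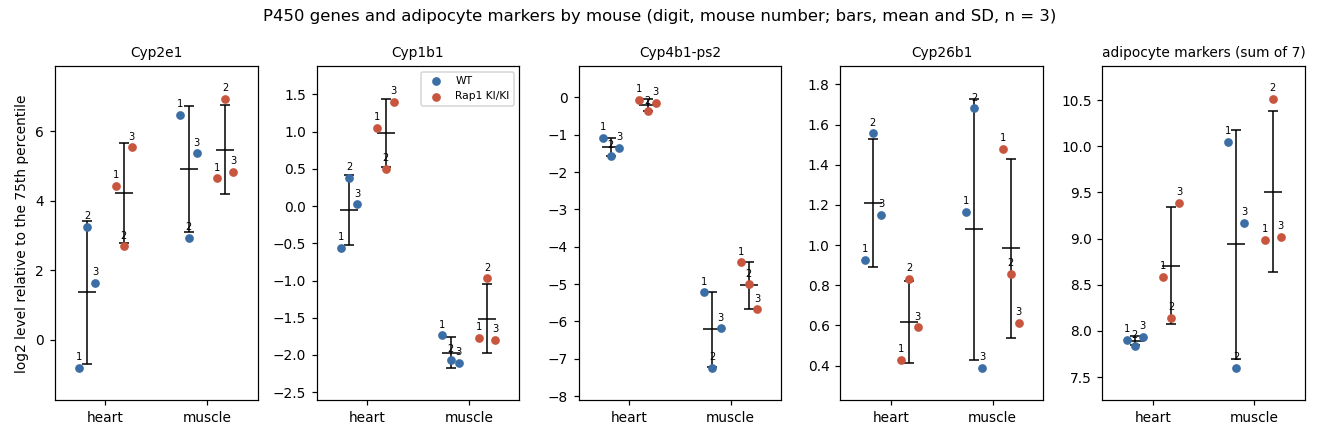
Levels of Cyp2e1, Cyp1b1, Cyp4b1-ps2 and Cyp26b1 and the summed level of 7 adipocyte markers in heart and muscle (log2 relative to each array's 75th percentile), with 1 numbered point per mouse (blue, WT; red, Rap1 KI/KI) and bars for the mean and SD over 3 mice. Heart Cyp2e1 runs from −0.80 to 5.55, and the adipocyte sum is highest in the hearts of KI1 and KI3.

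Muscle gave only Cyp2c50 at the looser level. It read −5.00, −5.54 and −4.34 in WT and −7.60, −7.33 and −5.04 in Rap1 KI/KI muscles, above background in 2 and 1 of the 3 mice (difference −1.70, SE 0.69, unadjusted p = 0.042). Left-out mice moved it from −1.23 without KI1 to −2.51 without KI3. All 7 liver markers also had lower means in Rap1 KI/KI muscle, with log2 sums of 3.94 to 4.35 in WT and 3.19 to 4.22 in Rap1 KI/KI, and their part in the Cyp2c50 value was not tested. The only muscle genes without overlap were Cyp2j13 and Cyp2j8, of the arachidonic acid epoxygenase subfamily, with differences of 0.40 and 0.36. A second Cyp2j13 probe, above background on all 6 muscle arrays, gave −0.08. Cyp4f39, the gene highest in muscle, differed by −0.57 with overlap, and by −0.31 without KI3 and −0.86 without KI1.

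No P450 gene differed between tissues in its genotype difference (interaction of genotype and tissue, 0% of all probes at an adjusted p of 0.05). No P450 gene had an unadjusted interaction p under 0.05 either (2.93% of all probes). The lowest interaction p was 0.11 for Cyp4b1-ps2, whose differences were 0.38 in liver, −0.26 in brain, 1.14 in heart and 1.18 in muscle. Cyp20a1 and Cyp2f2 followed at 0.14 and 0.16. Cyp4b1-ps2 was above background on only 2 brain and 2 muscle arrays, so its genotype difference was tested on its own in neither tissue.

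One liver stood apart in several P450 genes, that of KI3. Cyp2b9, a P450 known to be higher in female than in male mouse liver, read −0.64 in KI3 and −3.67, −4.32, −4.02, −4.15 and −2.36 in WT1, KI1, WT2, KI2 and WT3. Its KI3 level was 10.4-fold above the median of the other 5 livers. Cyp2b13, also female-biased, read −2.20 in KI3 and −6.90 to −5.55 in the other 5, and was above background only in KI3, WT1 and KI1 of the 6 livers. Cyp2b10, the usual readout of the receptor CAR, was 3.35 in KI3 and 1.16 to 2.97 in the others. Nr1i3, which encodes CAR and is 1 of the 18 regulators listed, was 4.36 in KI3 and 3.19 to 3.57 in the others. It was taken up after its value was seen, and its part in the P450 values of KI3 was not tested.

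Cyp2b9 and Cyp2b13 lie on the same strand of chromosome 7 and were nearly identical over the bases compared, which is why both are shown. Their 300 bases around the first listed start, which lies 59 and 107 bases inside the annotated genes, were identical at 298 positions. The first 143 of these bases, printed here, lie before both genes, were identical at 141 positions and held none of the motifs above.
Cyp2b9 (chr7:26173159-26173301, + strand): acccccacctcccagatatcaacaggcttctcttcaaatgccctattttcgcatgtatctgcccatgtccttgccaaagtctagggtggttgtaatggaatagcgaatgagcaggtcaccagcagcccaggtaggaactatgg
Cyp2b13 (chr7:26061245-26061387, + strand): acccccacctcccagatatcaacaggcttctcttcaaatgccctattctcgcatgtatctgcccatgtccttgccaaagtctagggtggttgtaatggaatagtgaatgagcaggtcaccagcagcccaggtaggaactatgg

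The male-biased fatty acid hydroxylases were at their lowest in the same liver. Cyp4a12a read 5.28 in KI3 and 6.38 to 7.02 in the other 5, 2.77-fold below their median, and Cyp4a12b read 5.45 and 6.35 to 7.27, 2.87-fold below. Cyp2c55 was −0.51 in KI3 and 1.15 to 1.78 in the others. The pattern did not cover all sex-biased genes, since female-biased Cyp3a16 and Cyp3a41b were lowest in KI3, and female-biased Cyp2a4 and Cyp3a44 and male-biased Cyp2d9 fell within the range of the other livers. Over the whole lists, the median difference of Rap1 KI/KI from WT was 0.25 for 6 female-biased genes and −0.26 for 3 male-biased genes, with no unadjusted p under 0.05 in either. KI3 was the highest liver for 17 of 79 P450 genes (21.5%, against 14.9% of all probes) and the lowest for 24 (30.4%, against 19.1%). WT1 was the highest liver for more genes, 20 (25.3%, against 31.6%), and WT2 for 16 (20.3%, against 18.2%). The other mice were the lowest liver for 7 (KI2) to 15 (WT2) genes. Without KI3, 1 liver gene had an unadjusted p under 0.05 in place of 2.

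**Figure D5:**
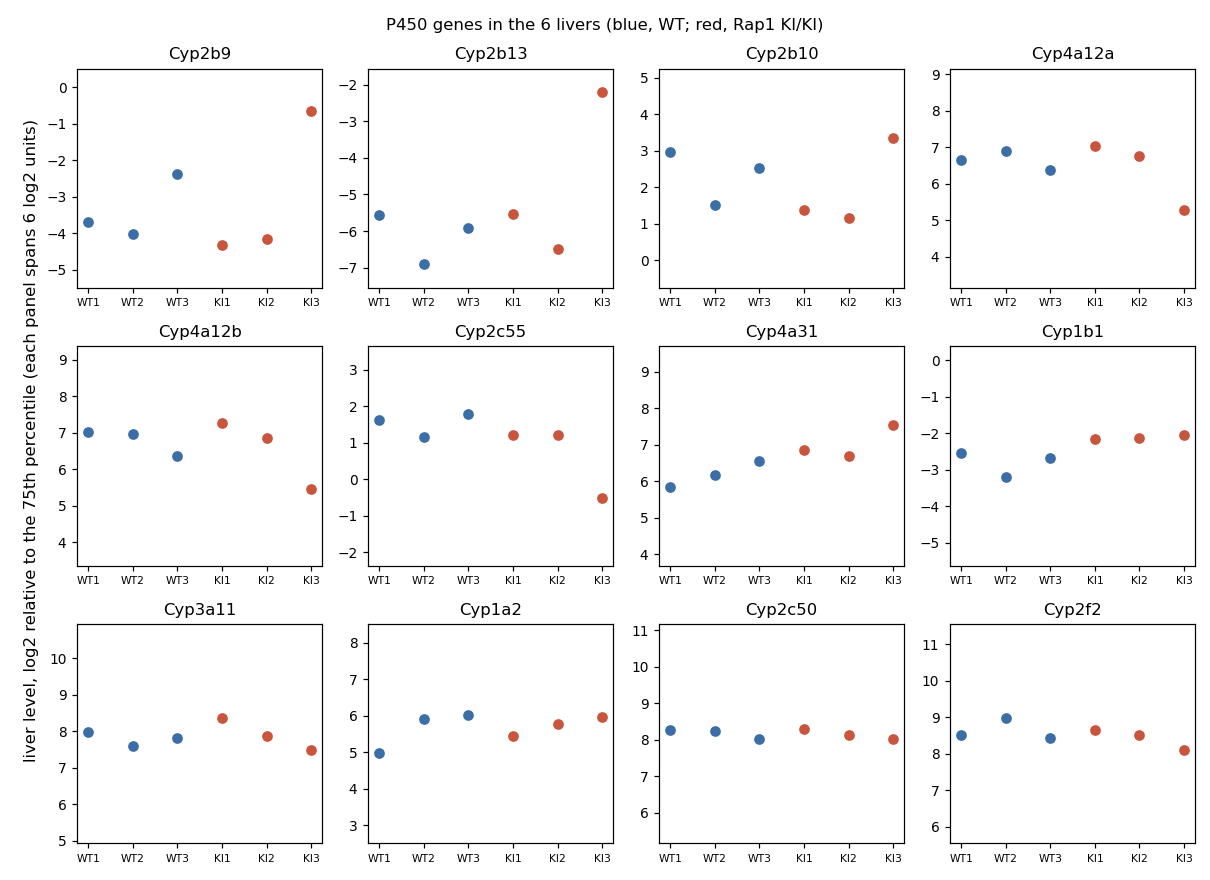
Levels of 12 P450 genes in the 6 livers (log2 relative to each array's 75th percentile), with 1 point per mouse (blue, WT; red, Rap1 KI/KI) and the same span of 6 log2 units in each panel. The liver of KI3 is highest for Cyp2b9, Cyp2b13, Cyp2b10 and Cyp4a31 and lowest for Cyp4a12a, Cyp4a12b and Cyp2c55, while Cyp2c50 and Cyp2f2 vary little.

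The spread between livers was also taken over all P450 genes. Over the 73 genes above background in all 6 livers, the median SD within a genotype was 0.33, against 0.30 over all probes, with 20 genes under 0.25 and 16 over 0.5. Age was compared in liver between the 2 mice of 5 months and the 4 of 2 months. None of 79 genes passed an adjusted p of 0.05 (0.00284% of all probes), and the limma fit gave 7 genes with higher and 6 with lower values at 5 months at an unadjusted p under 0.05 (10.9% and 6.38% of all probes). Cyp2j9 had the lowest p, at a mean of 2.63 at 5 months and 1.63 at 2 months (difference 1.00, SE 0.21, adjusted p = 0.20). Cyp2j5, Cyp1a1 and Cyp3a13 followed, with differences of −0.79, 0.86 and −1.05.

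The partners of P450 enzymes gave no call either. None of the 6 electron donor genes tested (Por, Cyb5a, Cyb5b, Cyb5r3, Fdx1 and Fdxr) passed in any tissue, and their liver differences ran from −0.31 to −0.02. Por itself, the reductase of all microsomal P450s, differed by −0.25 in liver (SE 0.23) and 0.09 in heart (SE 0.25). Of 11 genes of heme synthesis and breakdown, 0 passed, and 1 had an unadjusted p under 0.05, heart Fech, the ferrochelatase, with a difference of 0.51. Among 18 regulators of P450 genes, of which 17 were tested in liver, 0 passed, and muscle Ahr, the aryl hydrocarbon receptor, was the only one with an unadjusted p under 0.05 (difference 0.52).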

How the data were processed

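Liver, brain, heart and skeletal muscle of 6 mice were hybridised to 24 one-colour arrays of 62976 spots. The deposited scanner files hold the processed signal intensity of each spot, which per the file headers comes from Agilent Feature Extraction 12.0.3.1 and is background-corrected. The deposited series table holds a score, the z-score that the authors made within each array from log10 processed signal. It matched values recomputed from the scanner files within 0.005 and served as an alternative only.

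From the intensities, control and outlier spots were left out, spots of a probe were averaged, and log2 signal minus the array's 75th percentile was taken. Of 55681 probes, 28331 carried an accession with a gene symbol in the RefSeq table of GRCm38.p6. P450 genes without such a match (Cyp2a5, Cyp2c40, Cyp2c69 and Cyp3a41a among them) were not analysed here. Probes were tested in a tissue with 3 or more of its 6 arrays well above background, using limma 3.58.1 and statmod 1.5.0 in R 4.3.3, with Benjamini-Hochberg adjustment over all tested probes. Genotypes were compared within each tissue on 6 arrays. Tissues, and the interaction, were fitted on all 24 arrays as 8 group means. A gene was called highest in a tissue when it passed against each of the other 3. The scripts were tested on simulated data.

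The genes, lists and tests were chosen with earlier results of these data known. Named genes were those with the lowest genotype p (6 in liver, 4 in each other tissue), all highest outside liver, the 10 liver genes whose smallest measured log2 difference over the other tissues was largest, 3 by interaction p and 4 by age p. Genes of the KI3 liver and of the lists were described in addition, after their values were seen.

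Replicate numbers mark the same animal across tissues in the labels. Deviations of same-mouse arrays correlated at −0.22 to 0.26 (median 0.05, 36 pairs), and the consensus correlation was 0.026. Alternatives covered quantile normalization, normexp (offset 50, run on the median spot signal), the z-scores, filters, trend and robust moderation, age, slide, probe choice, the mouse as block and leaving out each mouse. The number of arrays limits precision.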

Additional observations from a re-analysis of the deposited data

Results flagged for a closer look

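Cyp26b1, which degrades retinoic acid, had differences of opposite sign in brain and heart, and in neither tissue did the genotypes overlap. In brain it read 1.18, 1.75 and 2.03 in WT and 2.13, 2.12 and 2.36 in Rap1 KI/KI mice, a difference of 0.55 on the log2 scale. In heart the difference was −0.59, with all 3 Rap1 KI/KI mice below all 3 WT mice. Liver and muscle gave −0.04 and −0.10. The limma interaction of genotype and tissue gave an adjusted p = 1 for this gene, and the difference between brain and heart alone was not tested. Brain differences were 0.95 within slide 1 and 0.35 within slide 2, and heart differences −0.61 within slide 2 and −0.56 within slide 3.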

How the results depend on the processing

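No alternative produced a P450 gene with an adjusted p under 0.05 for genotype in any tissue or for the interaction, and the mouse as replicate block gave 0 such genes and 63, 4, 3 and 1 genes highest in liver, brain, heart and muscle. That replicate block changed no other call. The number highest in liver was 56 to 63 over all settings run, those highest in muscle 5 with normexp, 2 without a filter and 2 with slide as a fixed block. The median genotype difference in liver was 0.070 with quantile normalization, and in muscle it was 0.11 over probes above background on all 6 arrays. With normexp the smallest difference of Cyp4x1 turned to −0.36. Calls lost were Cyp4f18 with slide as a block (0.40) and Cyp2j9 on WT arrays (0.32) or without KI2 (0.48). The causes were not tested. Leaving out each mouse in turn gave 60 to 63 genes highest in liver, 3 to 5 in brain, 3 in heart and 1 in muscle, and genotype medians of −0.06 to 0.02 in liver, −0.19 to −0.01 in brain, 0.01 to 0.37 in heart and −0.17 to 0.04 in muscle. Genes at an unadjusted p under 0.05 numbered 0 to 4 in liver, 0 to 4 in brain, 1 to 9 in heart (9 without WT2, beside 10.5% of all probes, and 1 without KI3) and 0 to 7 in muscle (7 without KI3, beside 2.43%). Scaling shifted the median of all probes by over 0.1 only between tissues, by up to −0.36 for liver against muscle with normexp and 0.28 for brain against muscle with z-scores. Signal near background limits the differences of the dim genes.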

Other observations

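Several P450 genes were far higher on 1 array than on the other 5 of the same tissue. Cyp19a1, the aromatase that makes estrogens, read −0.34 in the brain of WT2, where the next highest brain was −4.22, and −2.11 in the heart of WT3, where the next was −5.37. Cyp2j5, an arachidonic acid epoxygenase, read −2.09 in the heart of WT3 (next −7.65) and −2.85 in the muscle of WT1 (next −7.32). Cyp17a1, which makes androgen precursors, was 3.18 in the heart of WT3 (next 0.94), and Cyp2b19, known from keratinocytes, was −2.72 there (next −4.77). In the brain of WT1, Cyp2c50, Cyp2a12 and Cyp2c54 read −4.41, −5.28 and −5.59, with the next brains at −7.98, −7.94 and −7.98. Liver markers were high on that array too, at 0.57 for Alb (−6.04 to −3.86 in the other brains), 1.21 for Serpina1c (−4.54 to −2.29) and −1.06 for Fabp1 (−7.38 to −4.63), while the log2 sum of 7 liver markers was 6.18, against 4.82 to 6.87. Cyp4f15 in the muscle of KI3 was −2.64 (next −5.89), on an array where the brain markers Gfap and Gad1 read 1.94 and 0.77 (−7.54 to −2.60 and −7.31 to −4.93 in the other muscles) and the log2 sum of 7 brain markers was 7.10, against 6.34 to 6.94. Of the 4 brain markers tested for genotype in muscle, 3 had higher means in Rap1 KI/KI, and Camk2a a lower one (2.90 against 3.39 in WT, without overlap). The part of liver or brain RNA in these values was not tested. Cyp2b9 in the muscle of WT2 was −3.87 (next −6.56). These values were picked for their gap and carry no test.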
